A study of Mus musculus with 5 samples.

Results

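Maternally methylated imprint control regions of mouse embryonic stem (ES) cells were followed in 5 libraries made by reduced representation bisulfite sequencing (RRBS). In RRBS, MspI cuts genomic DNA at CCGG, short CpG-rich fragments are sequenced, and bisulfite turns unmethylated cytosine into a base read as T, so the share of reads still showing C is the methylation level. The 10 regions are those of Snrpn, Peg3 and Kcnq1ot1 on chromosome 7, Mest and Peg10 on chromosome 6, Grb10 on chromosome 11, Plagl1 on chromosome 10, Airn on chromosome 17, Nnat on chromosome 2 and Impact on chromosome 18. They were taken as fixed intervals of 3500 to 6000 bases on build mm9. Their limits use no measured level, but the regions were chosen with earlier results of these data known. Together they hold 217 of the 1097424 CpGs that at least 1 of the 5 tables lists on the autosomes and the X chromosome. No annotation of mm9 was used here, so exon, intron and UTR are not given.

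Besides WT there was 1 library each of Fbxl10 T/T and of the Polycomb mutants Ezh2 -/-, Eed -/- and Ring1B -/-. WT and Fbxl10 T/T cells are labelled C57BL/6J, were grown with serum and LIF on inactivated embryonic fibroblasts that were removed before use, and were harvested at passage 17. The T allele is not explained in the labels. The 3 Polycomb mutants are labelled with serum and LIF only, without a strain, a passage or a feeder layer, so strain, culture and genotype cannot be told apart when they are set against WT. The methylation tables hold no expression, so the loss of the targeted genes was not checked here. The series title asks whether FBXL10 shields genes bound by Polycomb from gaining methylation.

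An imprint control region is a CpG-rich element that carries methylation on the allele from one parent only, and it sets which parental copy of the surrounding genes is expressed. The regions described here receive methylation in the oocyte and lack it on the paternal copy. ZFP57, a zinc finger protein that binds methylated TGCCGC, and its partner TRIM28 keep the mark through the wave of demethylation after fertilization, and DNMT1 with UHRF1 copies it at each cell division. FBXL10, also called KDM2B, binds unmethylated CpGs and belongs to a variant of Polycomb repressive complex 1, of which Ring1B is the ubiquitin ligase. Polycomb repressive complex 2 methylates lysine 27 of histone H3, with Ezh2 as its enzyme and Eed as the partner the enzyme needs.

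Most of the reads came from Grb10, Plagl1 and Nnat, and Kcnq1ot1, Airn and Peg3 are the regions set against them in Fbxl10 T/T. A stretch of each is therefore shown on the + strand of mm9, as spelled by the overlapping sequence contexts of the tables. Capitals mark CpGs, and a CpG written between c and g is an MspI site.
Grb10, chr11:11926235-11926308: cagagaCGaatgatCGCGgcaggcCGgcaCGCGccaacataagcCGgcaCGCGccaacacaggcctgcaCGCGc
Grb10, chr11:11926340-11926417: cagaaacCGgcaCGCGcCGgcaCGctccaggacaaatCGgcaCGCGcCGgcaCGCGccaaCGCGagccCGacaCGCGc
Plagl1, chr10:12810790-12810819: atCGgagatctgaCGgCGaCGcctgagtcC
Nnat, chr2:157385308-157385347: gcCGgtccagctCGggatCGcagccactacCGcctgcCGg
Kcnq1ot1, chr7:150481336-150481376: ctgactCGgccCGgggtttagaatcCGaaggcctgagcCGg
Airn, chr17:12935240-12935273: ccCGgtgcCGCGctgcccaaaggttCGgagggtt
Peg3, chr7:6682971-6683000: ccCGgagcacagcactctaCGcacacaccc
The Grb10 stretches hold 11 and 16 listed CpGs, whereas those of Kcnq1ot1, Airn and Peg3 hold 4, 4 and 2.
The start of Plagl1 lay at position 12810638 and that of Nnat at 157385814, each inside its region, where the RefSeq promoter sequence (GRCm38.p6) matched the letters of the mm9 tables without a mismatch. The Plagl1 stretch thus lies downstream of the start and the Nnat stretch upstream of it.

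Reads at CpGs numbered 43079673 in WT and 27338258 in Fbxl10 T/T, counted at each CpG a read covers, with medians of 33 and 23 reads per listed CpG. The Polycomb mutants held between 1766681 and 1942248 reads at CpGs, with a median of 3. CpGs inside CCGG were left out of all values below unless stated, because across the genome they read higher than the other CpGs in all 5 libraries. A level is the number of C reads divided by C plus T reads, summed over CpGs, with 95% Wilson intervals. A region counts as measured in a library with at least 5 CpGs and 30 reads. Since each genotype has 1 library, no difference has a replicate check, and Fisher's exact test compares 2 libraries and not 2 genotypes. Reads of a region, window or stretch are summed over its CpGs, so a read that covers several CpGs counts several times. Intervals cover counting error only and, since CpGs of a fragment share reads, they are too narrow.

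In WT the regions read in the middle of the scale. The 7 measured regions were Grb10 at 35.05% (33.4 to 36.8%, 3016 reads), Airn at 36.8% (29.97 to 44.2%, 174 reads), Plagl1 at 37.7% (34.98 to 40.5%, 1183 reads), Impact at 41.6% (31.2 to 52.7%, 77 reads), Kcnq1ot1 at 43.5% (37.2 to 49.9%, 230 reads), Peg10 at 43.8% (28.2 to 60.7%, 32 reads) and Nnat at 53.7% (49.1 to 58.3%, 443 reads). Neighbours in this order had overlapping intervals, and Nnat stood above Grb10, Airn and Plagl1. Peg3 (52.8%, 127 reads at 4 CpGs) and Mest (43.7%, 87 reads at 3 CpGs) fell short of the minimum of CpGs with levels in the same range. Snrpn, the region of the Prader-Willi imprinting centre, held 1 read outside CCGG and is not measured. At its CCGG sites WT read 61.0% (45.7 to 74.3%, 41 reads) and Fbxl10 T/T 73.3% (55.5 to 85.8%, 30 reads). Over all 10 regions WT read 38.3% (37.0 to 39.6%, 5370 reads), against 13.6% over all CpGs outside CCGG in the same library.

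**Figure D1:**
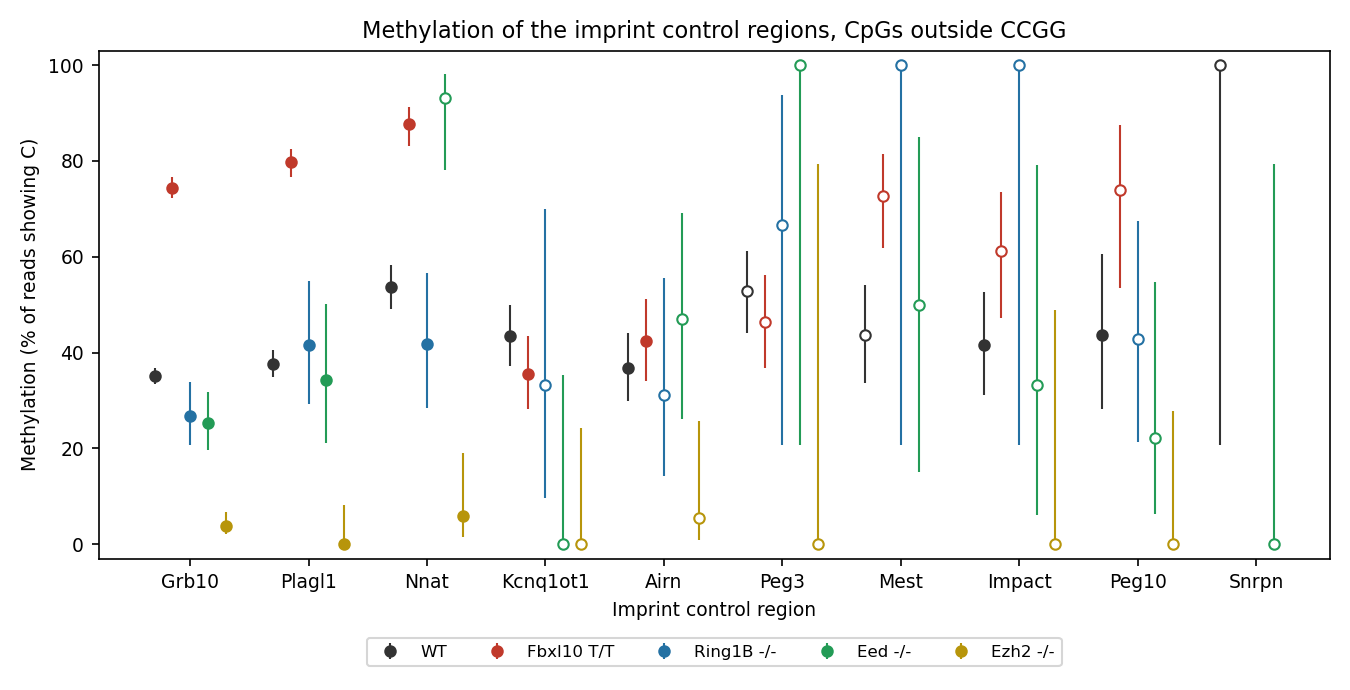
Methylation of each region in the 5 libraries, as the percent of reads showing C at CpGs outside CCGG (y axis, bars are 95% Wilson intervals of counting error). Filled points have at least 5 CpGs and 30 reads, open points fewer. WT lies between 35.05% and 53.7% in the filled points, Fbxl10 T/T is highest at Grb10, Plagl1 and Nnat among filled points, and Ezh2 -/- is at 5.88% or lower in its 3 filled points.

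In Fbxl10 T/T, Grb10, Plagl1 and Nnat rose far above WT, while Kcnq1ot1 and Airn did not pass the test. Grb10 encodes an adaptor that restrains growth factor signalling. Its region read 35.05% in WT and 74.4% in Fbxl10 T/T at the 57 CpGs with reads in both, a difference of 39.35 points (95% Newcombe interval 36.5 to 42.1). Plagl1, a zinc finger transcription factor that limits cell growth, read 37.7% in WT and 79.8% in Fbxl10 T/T over 27 CpGs, a difference of 42.1 points (38.0 to 46.0). Nnat, which encodes a small membrane protein of developing neurons, read 53.5% in WT and 87.5% in Fbxl10 T/T over 14 CpGs, a difference of 34.0 points (27.5 to 39.9). The intervals of the 2 libraries did not overlap in any of these 3 regions.

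The same regions were then read off a genome-wide test of 1-kb windows, by Fisher's exact test (two-sided) with Benjamini-Hochberg adjustment over all windows tested and a call at 20 points and an adjusted p under 0.05. In Fbxl10 T/T, 5 of the 7 windows of the regions rose and 0 fell, where 25.5% of the 20072 windows tested rose and 2.66% fell. Those that rose were the window of Plagl1 (adjusted p 1.7e-76 by Fisher's exact test), both windows of Grb10 and both of Nnat. The window of chromosome 11 from 11926001 to 11927000, which holds both Grb10 stretches shown above, rose from 32.8 to 74.3% (adjusted p 5.2e-103, Fisher's exact test). The neighbouring Grb10 window from 11925001 to 11926000 rose from 38.9 to 74.7% (adjusted p 2.42e-41, Fisher's exact test). The window of chromosome 2 from 157385001 to 157386000, with the Nnat stretch shown, went from 63.1 to 87.7% (adjusted p 1.34e-07, Fisher's exact test). The next Nnat window rose from 38.9 to 88.2% (adjusted p 4.98e-15, Fisher's exact test). The WT levels of the Nnat windows thus differed by more than their levels in Fbxl10 T/T.

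Kcnq1ot1 and Airn, both promoters of long noncoding RNAs known to silence their neighbours in cis, did not pass. Kcnq1ot1 read 43.5% in WT and 35.6% in Fbxl10 T/T (230 and 149 reads), a difference of -7.91 points (-17.6 to 2.21; adjusted p 0.241 for its window, Fisher's exact test). Airn read 37.3% in WT and 42.4% in Fbxl10 T/T (166 and 125 reads), a difference of 5.05 points (-6.19 to 16.3; adjusted p 0.707 for its window, Fisher's exact test). Both intervals lie below the differences of Grb10, Plagl1 and Nnat. They rest on few CpGs, however. Of the Fbxl10 T/T reads, 140 of 149 at Kcnq1ot1 lay on 3 CpGs between 150481280 and 150481375. At Airn 120 of 125 lay on 4 CpGs between 12935242 and 12935287. With at least 5 reads per CpG both regions fall under the minimum of CpGs. Peg3, a zinc finger gene expressed from the paternal copy, read 53.2% in WT and 46.4% in Fbxl10 T/T over 3 CpGs (126 and 97 reads), a difference of -6.78 points (-19.6 to 6.36). With every CpG given the same weight, however few its reads, the difference became 10.9 points at Kcnq1ot1, 22.1 at Airn and 14.8 at Nnat, and all 3 regions hold CpGs read 1 to 3 times. At each of the 3 Kcnq1ot1 CpGs of chr7:150481496-150481524, 0 of 3 reads showed C in WT and 1 of 3 in Fbxl10 T/T.

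Mest, Peg10 and Impact were read too thinly for a window. Mest, an enzyme-like gene of the early embryo, read 44.2% in WT and 72.7% in Fbxl10 T/T over 2 CpGs (86 and 77 reads), a difference of 28.5 points (13.4 to 41.8). Peg10, a gene derived from a retrotransposon and needed for the placenta, read 46.2% (26 reads) and 73.9% (23 reads), a difference of 27.8 points whose interval runs from 0.308 to 49.8. Impact, a regulator of translation under amino acid shortage, read 43.8% (64 reads) and 61.2% (49 reads), a difference of 17.5 points with an interval that includes 0 (-1.06 to 34.3). With the CCGG sites kept, the Impact difference was 4.41 points (-6.345 to 14.8) and the Peg10 difference 22.8 points (-0.619 to 42.7), so both intervals then include 0.

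Single CpGs moved from the middle of the scale to its upper part. At 98 CpGs of the regions with at least 10 reads in WT and Fbxl10 T/T, 22 lay under 30%, 76 between 30 and 70% and 0 above 70% in WT. In Fbxl10 T/T the same CpGs numbered 1, 38 and 59 in these classes. By Fisher's exact test with Benjamini-Hochberg adjustment and a call at 25 points, 55 of the 98 rose and 0 fell, beside 16.5% of 368305 CpGs that rose and 4.35% that fell across the genome. Of the CpGs that rose, 31 of 51 tested lay in Grb10, 18 of 27 in Plagl1, 5 of 6 in Nnat and 1 of 2 in Mest. None of the 3 tested in Peg3, 3 in Kcnq1ot1, 4 in Airn and 2 in Impact rose. CpGs of 1 fragment share reads and are not independent.

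Within Grb10 the level changed over short distances in both libraries. The 51 tested CpGs spanned 10 to 62.1% in WT (SD over CpGs 10.9) and 26.7 to 100% in Fbxl10 T/T (SD 15.3). In the stretch from 11926235 to 11926308, the CpGs at 11926241, 11926249 and 11926251 read 18.6, 17.0 and 20.3% in WT. The CpGs at 11926284, 11926286, 11926304 and 11926306, across 2 MspI sites and therefore on another fragment, read 52.3, 51.2, 50 and 54.8%. In Fbxl10 T/T the first 3 read 80.8, 76.9 and 80.8% and the last 4 read 96.2, 96, 100 and 92%. The largest rise of a Grb10 CpG was 62.1 points, at 11926241. The stretch from 11926340 to 11926417 read 25.1% in WT (728 reads) and 70.7% in Fbxl10 T/T (362 reads). One CpG, at 11926858 near the edge of the island, went the other way without a call, at 44.1% in WT and 26.7% in Fbxl10 T/T (34 and 15 reads; adjusted p 0.928, Fisher's exact test).

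Nnat was more even over its CpGs in Fbxl10 T/T than in WT (SD over 6 CpGs 1.38 against 16.3), and Plagl1 was not (SD over 27 CpGs 11.7 against 9.08). The 27 tested CpGs of Plagl1 read 18.8 to 50.9% in WT and 58.3 to 93.5% in Fbxl10 T/T, with every difference positive, from 24.5 to 54.6 points. The 7 CpGs nearest the Plagl1 start, from 12810630 to 12810686, were the lowest in WT, at 18.8 to 26.5%. In the Plagl1 stretch shown above, WT read 47.4% (228 reads) and Fbxl10 T/T 84.9% (199 reads). The 6 tested CpGs of Nnat spread from 26.5 to 65% in WT and only from 86.3 to 89.5% in Fbxl10 T/T. Upstream of the Nnat start, at the stretch shown, WT read 62.8% (242 reads) and Fbxl10 T/T 87.6% (153 reads). Downstream, between 157385982 and 157386048, WT read 38.5% (174 reads) and Fbxl10 T/T 88.0% (92 reads).

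**Figure D2:**
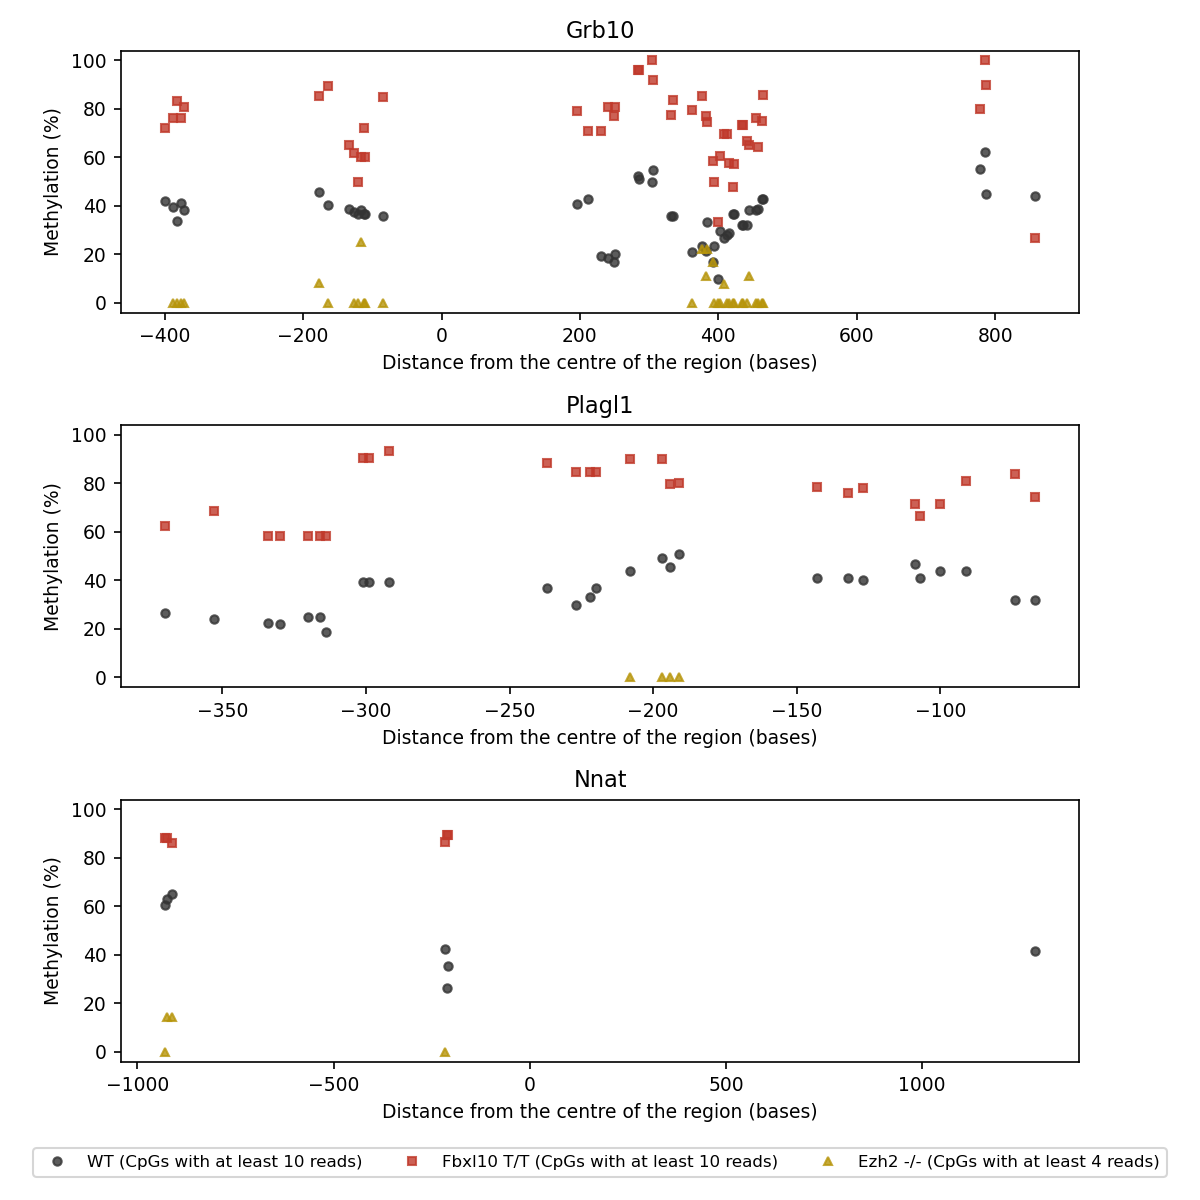
Methylation of single CpGs outside CCGG (y axis, percent of reads showing C) along Grb10, Plagl1 and Nnat, by distance from the centre of each interval in bases (x axis). Circles are WT and squares Fbxl10 T/T at CpGs with at least 10 reads, triangles Ezh2 -/- at CpGs with at least 4. The Fbxl10 T/T squares lie above the WT circles at all but 1 CpG, and the 4 Ezh2 -/- triangles of Plagl1 lie at 0.

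The rises were set beside all windows with a like starting level. Of the 946 windows between 30 and 70% in WT that were tested in Fbxl10 T/T, 45.7% rose and 7.4% fell, with a median difference of 17.9 points. The middle part of these differences, from the 25th to the 75th percentile, spanned 2.25 to 30.25 points, and the 95th percentile was 43.96 points. The Plagl1 window (42.1 points) and both Grb10 windows (35.8 and 41.5) lay between the last 2 values. The Nnat windows lay on either side, at 24.6 points inside the middle part and 49.3 above the 95th percentile. The Airn window (3.66) lay near the lower edge of the middle part and the Kcnq1ot1 window (-7.91) below it. The median over the 5 measured regions was 34.0 points, and 19.5 points when either Grb10 or Plagl1 was left out. Rises were thus frequent among windows of middle level across the genome in this library, and a rise by itself is not particular to these regions.

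**Figure D3:**
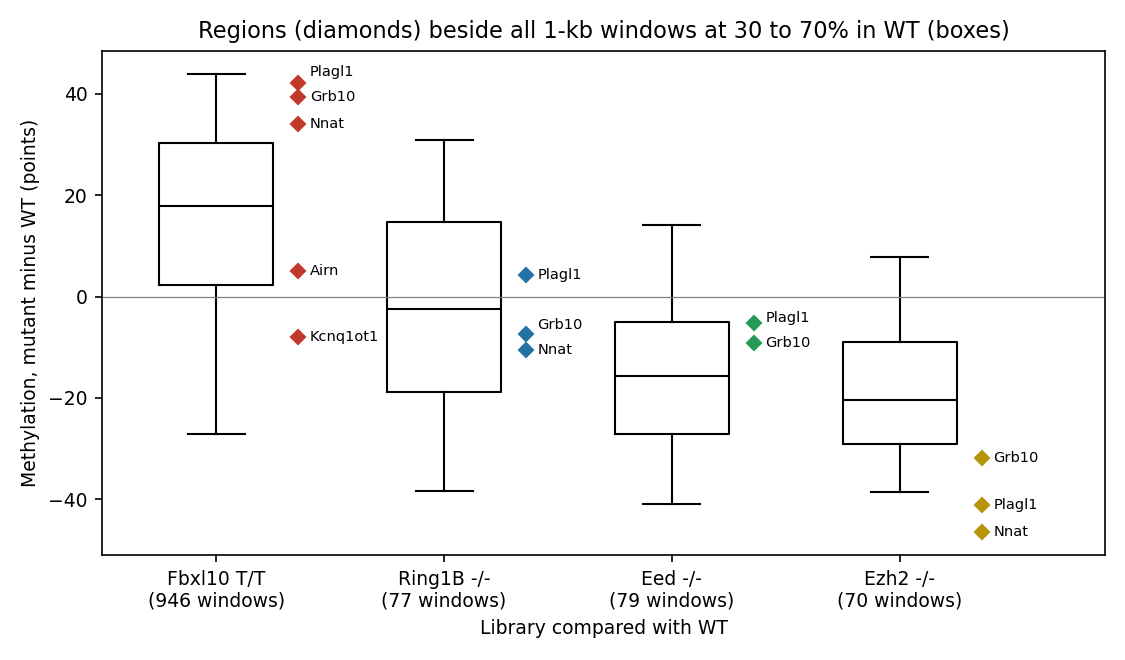
Difference in methylation, mutant minus WT in percentage points (y axis), of each measured region as a whole (diamonds) beside all 1-kb windows at 30 to 70% in WT (boxes from the 25th to the 75th percentile with the median, whiskers to the 5th and 95th). Plagl1, Grb10 and Nnat lie above the box in Fbxl10 T/T, and Grb10, Plagl1 and Nnat lie below the box in Ezh2 -/-.

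In the Ezh2 -/- library the regions carried almost no methylation outside CCGG. Over all 10 regions 13 of 386 reads showed C, 3.37% (1.98 to 5.68%). Grb10 read 3.79% (2.07 to 6.83%, 264 reads), Plagl1 0% (0 of 43 reads, up to 8.20%) and Nnat 5.88% (1.63 to 19.1%, 34 reads). Regions under the minimum held few reads, so their upper bounds are high. Airn read 5.56% (18 reads, up to 25.8%) and Kcnq1ot1 0 of 12 reads (up to 24.25%). Peg10 read 0 of 10 (up to 27.75%) and Impact 0 of 4 (up to 49.0%). Snrpn and Mest had no read outside CCGG. The Kcnq1ot1 reads lie on the CpG at 150481361 in the stretch shown above, where 41.6% of 113 WT reads and 37.2% of 78 Fbxl10 T/T reads showed C.

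At the same CpGs the difference from WT was -31.9 points at Grb10 (-34.4 to -28.3), -41.2 at Plagl1 (-44.7 to -32.3) and -46.5 at Nnat (-52.9 to -32.5). With only the deepest CpG of each fragment, Plagl1 kept 7 reads in Ezh2 -/-, and its difference was -43.9 points (-56.7 to -6.42). All 3 windows of the regions tested in Ezh2 -/- fell and 0 rose, beside 0.787% of 8513 windows that fell and 0.211% that rose. They were the Plagl1 window (from 41.2% to 0%, adjusted p 1.07e-07, Fisher's exact test), the Grb10 window from 11925001 (from 38.8 to 2.60%, adjusted p 1.64e-10, Fisher's exact test) and the Grb10 window from 11926001 (from 33.5 to 4.28%, adjusted p 1.21e-17, Fisher's exact test). Nnat reached no window in this library. Among the 70 windows at 30 to 70% in WT tested in Ezh2 -/-, 47.1% fell, and the median difference was -20.45 points. Of these, 13 (18.6%) read under 10% in Ezh2 -/-, and the 3 windows of the regions are among them.

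CpGs inside CCGG of the same regions did not read near 0 in Ezh2 -/-. They read 35.3% over all 10 regions (28.8 to 42.5%, 184 reads), against 48.1% in WT (2804 reads). At Grb10 they read 34.8% (92 reads), and at Plagl1 29.2% (24 reads). With few reads, they stood at 29.2% at Kcnq1ot1 (24 reads), 50% at Peg10 (10), 60% at Impact (10) and 14.3% at Airn (7). Across the genome these sites read 47.5% in Ezh2 -/- and 46.3% in WT, against 11.3 and 13.6% at all other CpGs. Across the genome the gap between CpGs inside and outside CCGG is present in all 5 libraries, and its cause was not tested. In the regions Fbxl10 T/T went the other way, at 69.6% inside and 72.5% outside CCGG. Its pooled difference from WT over all 10 regions was 34.2 points outside CCGG and 29.8 with the CCGG sites kept. With the CCGG sites kept, the difference of Ezh2 -/- from WT was -25.9 points at Grb10 and -31.8 at Plagl1, and the 3 windows kept their calls.

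Ring1B -/- and Eed -/- lay nearer to WT than Ezh2 -/- did at Grb10 and Plagl1. Grb10 read 26.7% in Ring1B -/- (20.7 to 33.8%, 172 reads) and 25.3% in Eed -/- (19.7 to 31.8%, 194 reads). At matched CpGs these lay -7.42 points (-13.8 to -0.107) and -9.22 points (-15.1 to -2.41) from WT. Plagl1 read 41.5% in Ring1B -/- (53 reads) and 34.2% in Eed -/- (38 reads), differences of 4.25 points (-8.40 to 18) and -5.28 points (-18.9 to 11.1). In Ring1B -/-, 0 of 3 windows of the regions rose or fell by Fisher's exact test, beside 1.3% of 8663 windows that rose and 0.554% that fell. In Eed -/-, 0 of 3 rose or fell, beside 0.352% of 9091 that rose and 0.671% that fell. The smallest adjusted p of these 6 comparisons was 0.115, for the Grb10 window from 11925001 in Eed -/- (Fisher's exact test). Among 77 windows at 30 to 70% in WT, 14.3% rose and 23.4% fell in Ring1B -/-, with a median difference of -2.39 points. Among 79 such windows 2.53% rose and 39.2% fell in Eed -/-, with a median of -15.7 points. Falls of windows at this WT level were thus not limited to Ezh2 -/-.

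Nnat differed widely among the Polycomb mutants. It read 41.9% in Ring1B -/- (28.4 to 56.7%, 43 reads), 93.1% in Eed -/- (78.0 to 98.1%, 29 reads, 1 under the minimum) and 5.88% in Ezh2 -/-. The 5 libraries therefore spanned most of the scale at this region. At 6 CpGs with reads in all 5 libraries, Eed -/- read 92.3% (26 reads) and Fbxl10 T/T 87.7% (243 reads), against 52.4% in WT, 41.9% in Ring1B -/- and 5.88% in Ezh2 -/-. The Eed -/- level came from both fragments, with 5 of 5 reads showing C at each of 3 CpGs of the upstream stretch shown above. Downstream of the start, 81.8% of 11 reads showed C, summed over 3 CpGs. Against WT the Eed -/- difference was 39.97 points (23.8 to 47.0) over 8 CpGs, and its intervals with WT do not overlap, but no window could be tested. The high level in Eed -/- was not shared by Kcnq1ot1 (0 of 7 reads), Peg10 (22.2% of 9 reads) or Airn (47.1% of 17 reads).

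Over all 10 regions pooled, the order of the libraries was the same when only CpGs read in all 5 were used. Over 54 such CpGs Fbxl10 T/T read 71.7% (69.6 to 73.7%), WT 37.8% (36.1 to 39.4%), Eed -/- 35.2% (29.7 to 41%), Ring1B -/- 33.2% (28.0 to 38.9%) and Ezh2 -/- 3.72% (2.19 to 6.27%). WT, Eed -/- and Ring1B -/- overlap in this order, and Fbxl10 T/T and Ezh2 -/- stand apart on either side. Grb10 held 36 of the 54 CpGs. Over the 9 regions other than Grb10, with all CpGs read, Eed -/- stood at 49.5% (40.3 to 58.8%) and WT at 42.5% (40.5 to 44.5%). All comparisons with WT share its single library. Set directly beside the mutants with the same culture label, Ezh2 -/- lay -30.8 points from Eed -/- (-36.7 to -24.9, 60 CpGs) and -29.3 points from Ring1B -/- (-35.0 to -23.6, 63 CpGs). Without Grb10, which held 3016 of the 5370 WT reads, these were -52.4 and -38.7 points.

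Cytosines outside CpG, which bisulfite converts unless they are methylated, were read in the same fragments. In the regions the share of reads showing C there was 0.968% for WT and 0.746% for Fbxl10 T/T, and among the Polycomb mutants 1.37% for Ring1B -/- and Eed -/- and 1.56% for Ezh2 -/-. Over the whole tables it was 1.02% for WT and 0.688% for Fbxl10 T/T, against 2.62, 2.83 and 2.10% for the Ring1B -/-, Eed -/- and Ezh2 -/- libraries, so the Polycomb mutants stood above the other 2. The part of this gap in the CpG levels was not tested. In the Snrpn interval of WT, 4 of 144 reads at cytosines outside CpG showed C.

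Among genes next to the regions, the main promoter of Grb10 and the promoter of Igf2r rose in Fbxl10 T/T from near 0. Both were chosen after their values were seen. The Igf2r gene encodes the receptor that clears IGF2 and contains the Airn promoter. Their RefSeq sequences (GRCm38.p6, minus strand, 250 bases before the start, CpGs in capitals) are shown because they matched the mm9 tables at 183 and 129 readable letters, outside the regions.
Grb10 main promoter, chr11:12037421-12037670: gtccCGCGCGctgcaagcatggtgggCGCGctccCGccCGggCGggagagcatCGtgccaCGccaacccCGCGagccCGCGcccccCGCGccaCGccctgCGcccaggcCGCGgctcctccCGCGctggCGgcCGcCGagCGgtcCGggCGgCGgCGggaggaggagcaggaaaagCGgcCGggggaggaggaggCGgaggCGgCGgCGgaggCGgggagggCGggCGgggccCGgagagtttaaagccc
Igf2r promoter, chr17:12769707-12769956: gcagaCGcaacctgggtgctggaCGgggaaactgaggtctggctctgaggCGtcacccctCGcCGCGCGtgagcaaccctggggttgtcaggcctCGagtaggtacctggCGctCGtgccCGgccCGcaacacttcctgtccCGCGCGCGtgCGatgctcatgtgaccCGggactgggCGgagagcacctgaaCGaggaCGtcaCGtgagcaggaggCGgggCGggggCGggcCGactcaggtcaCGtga
Within 1 kb of its start the Grb10 main promoter read 2.75% in WT (2984 reads) and 73.0% in Fbxl10 T/T (1344 reads), against 2.33, 3.97 and 7.14% in Ring1B -/-, Eed -/- and Ezh2 -/-. The Igf2r promoter read 5.05% in WT (1346 reads) and 52.4% in Fbxl10 T/T (724 reads), with no read showing C among 34, 46 and 48 reads of the Polycomb mutants. The window of the Igf2r start rose by 47.3 points in Fbxl10 T/T (adjusted p 8.91e-135, Fisher's exact test), and that of the Grb10 main promoter rose by 72.9 points. Of all 15931 windows under 10% in WT, 21.3% rose in Fbxl10 T/T, so such a rise is not particular to these promoters. The 95th percentile of their differences was 62.2 points, above the Igf2r window and below that of Grb10. The Igf2r promoter gained methylation in the same library in which the Airn region inside the gene read 42.4% and did not pass the test. Neither promoter was called in a Polycomb mutant.

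Other maternally methylated promoters were placed by their sequence where possible. Zrsr1, a splicing factor gene expressed from the paternal copy, read 36.01% in WT (1197 reads) and 36.6% in Fbxl10 T/T (590 reads). Ring1B -/- read 31.8% there (85 reads), Eed -/- 9.41% (85 reads) and Ezh2 -/- 2.04% (98 reads). Its window differed by 0.865 points between Fbxl10 T/T and WT (adjusted p 0.879, Fisher's exact test). It fell by 33.7 points in Ezh2 -/- (adjusted p 2.61e-12) and by 26.3 points in Eed -/- (adjusted p 1.2e-05, Fisher's exact test). Mcts2, a retrogene on chromosome 2, read 26.1% in WT (471 reads) and 40.8% in Fbxl10 T/T (196 reads). Its window was 15.1 points higher in Fbxl10 T/T, under the 20 points of a call, and its adjusted p was 0.000564 (Fisher's exact test). In Ezh2 -/- 0 of 24 reads showed C at Mcts2, against 8.70% of 23 reads in Ring1B -/- and 30.4% of 23 in Eed -/-. The promoters of Nap1l5 and Slc38a4 could not be placed.

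**Figure D4:**
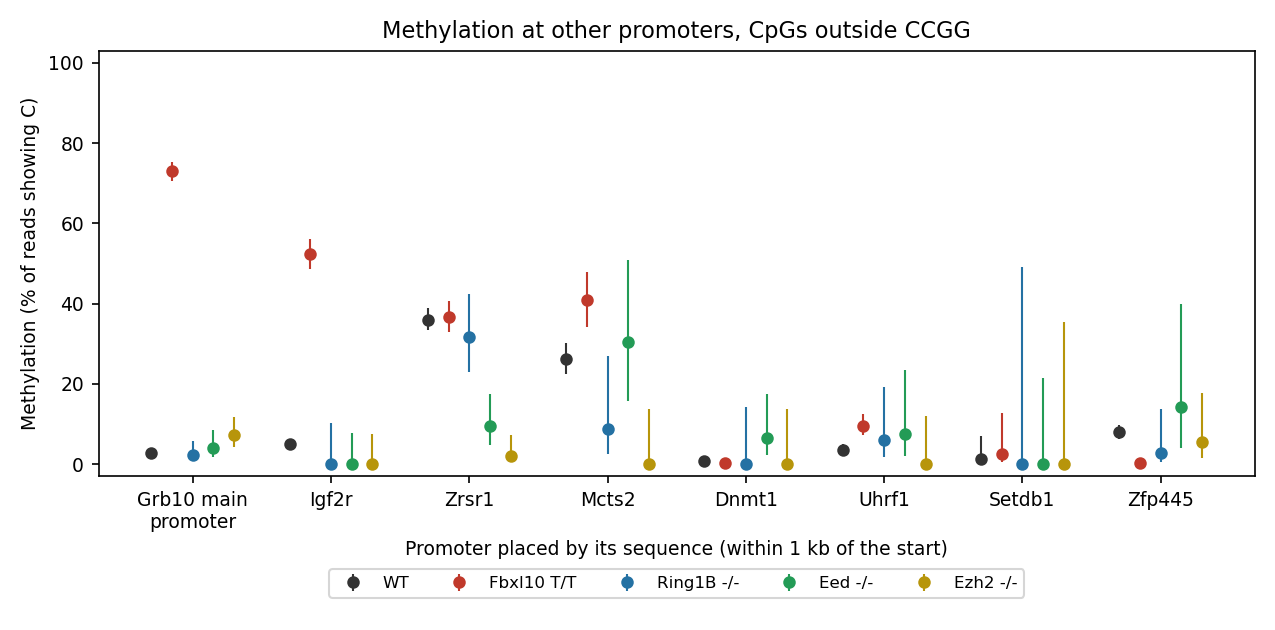
Methylation within 1 kb of promoters placed by their sequence (y axis, percent of reads showing C at CpGs outside CCGG, bars are 95% Wilson intervals of counting error) in the 5 libraries. Grb10 and Igf2r are high in Fbxl10 T/T only, at 73.0 and 52.4%, and Zrsr1 and Mcts2 are lowest in Ezh2 -/-, at 2.04 and 0%.

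The ZFP57 motif TGCCGC was searched on both strands around each listed CpG, with no overlap to another motif considered. It lay at 5 of the 128 CpGs of the regions with readable surroundings (3.91%), against 1.4% of 489452 such CpGs in the tables. A further match in Plagl1 had its surroundings read in part. The 3 matches with at least 10 reads in WT and Fbxl10 T/T are shown with the motif in capitals, on the + strand of mm9, since they belong to regions that rose and to one that did not pass.
Grb10, chr11:11926238-11926267: agacgaatgatcGCGGCAggccggcacgcg
Plagl1, chr10:12810858-12810875: gtggcatagccgTGCCGC
Airn, chr17:12935240-12935262: cccggTGCCGCgctgcccaaagg
The Grb10 match is on the minus strand. Its CpG at 11926251 rose from 20.3 to 80.8% (59 and 26 reads, adjusted p 2.81e-06, Fisher's exact test), and the Plagl1 CpG at 12810873 rose from 40 to 78.0% (65 and 41 reads, adjusted p 0.000839, Fisher's exact test). The Airn CpG at 12935248 read 31.0% in WT and 41.7% in Fbxl10 T/T (29 and 24 reads, adjusted p 1, Fisher's exact test). Among RefSeq promoters of 300 bases, 11.6% of 32851 hold the motif. This share is counted per promoter and cannot be set against the shares of CpGs above.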

How the data were processed

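RRBS tables of 5 mouse ES cell libraries were used. Per the submitters' processing notes, BSMAP 2.74 and build mm9 were used; trimming and removal of duplicates are not given in the sources used here. Per the file headers, the deposited counts are raw reads per cytosine that show C, or C or T, or come from the opposite strand. The authors' expected counts rescale the C or T reads for variants read on the opposite strand, and the deposited fraction divides the C reads by them. CpGs stand on the + strand only, with both strands summed.

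Levels were computed from the raw counts at CpGs outside CCGG. A difference uses CpGs with at least 1 read in both libraries. Windows needed 5 such CpGs and 30 reads in each library, and single CpGs 10 reads. Single-CpG calls are given for Fbxl10 T/T alone, since at most 7 CpGs of the regions reached 10 reads in a Polycomb mutant. The tests were run in Python 3.11.15 (numpy 2.4.6, scipy 1.17.1, numba 0.67.0, pandas 2.3.3) and tested on simulated data. Sequences were spelled from the 5-base contexts of the tables. RefSeq promoters (GRCm38.p6) were placed on them where at least 20 letters could be read, all matched, and the next best place scored at most 10. Peg10 and Dppa3 had no promoter entry, and those of Zfp57 and Trim28 could not be placed.

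The regions, the gene lists and the tests were chosen with earlier results of these data known. All 10 regions, 2 gene lists (other maternally methylated promoters and imprint maintenance factors), called windows of the regions and motif CpGs are named. The alternatives were the CCGG sites kept, 5 or 10 reads per CpG, CpG means without weights, CpGs of all 5 tables, a cap on read numbers, the expected counts, other call sizes, 2-kb windows and 1 region left out. A choice made after the data were seen took 1 CpG per fragment, the deepest of CpGs under 100 bases apart.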

Additional observations from a re-analysis of the deposited data

How the results depend on the processing

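The alternatives gave 83 values for the differences of single regions, of which 75 stayed inside the 95% interval of the reported value, 8 left it, and 0 of those called reversed. The cap on read numbers left every one of these differences unchanged and the expected counts changed them little, so their values add little to the 75. The median of Fbxl10 T/T over the regions (34.0 points) became 19.5 without Grb10 or Plagl1, 22.2 without Nnat, 13.6 with the CCGG sites kept, where Peg3, Impact and Peg10 also reach the minimum, and 22.1 as an unweighted mean. That of Ezh2 -/- (-41.2) became -31.8 with the CCGG sites, and -29.5 and -31.8 at 5 and 10 reads per CpG, with Grb10 alone measured. With 1 CpG per fragment Plagl1 gave 46.1 points in Fbxl10 T/T and Grb10 -36.7 in Ezh2 -/-.

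Of the windows of the regions, 3 of 3 measured rose in Fbxl10 T/T at 5 and at 10 reads per CpG, and 2 of 2 with CpGs of all 5 tables, where fewer windows could be tested. Under these settings the windows of Kcnq1ot1, Airn and Nnat could not be tested. At 10 reads no window of the regions could be tested in Ezh2 -/-. At 40 points 35 single CpGs of the regions rose.

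Counts over the genome moved more. With the CCGG sites kept, 3583 windows fell in Fbxl10 T/T, 405 rose and 282 fell in Ring1B -/-, 158 and 257 in Eed -/-, 139 and 313 in Ezh2 -/-, and 41552 single CpGs fell in Fbxl10 T/T. At 5 reads per CpG, 50 rose and 20 fell in Ring1B -/-, 19 and 29 in Eed -/-, 7 and 26 in Ezh2 -/-. At 10 reads, 284 fell in Fbxl10 T/T, 9 rose and 4 fell in Ring1B -/-, 11 and 4 in Eed -/-, 1 and 5 in Ezh2 -/-. With CpGs of all 5 tables, 2240 rose and 38 fell in Fbxl10 T/T, and 43 fell in Ezh2 -/-. At 10 points, 893 fell in Fbxl10 T/T, 333 rose and 82 fell in Ring1B -/-, 216 and 113 in Eed -/-, and 146 rose in Ezh2 -/-. At 30 points, 276 fell in Fbxl10 T/T, 61 rose and 23 fell in Ring1B -/-, 9 and 22 in Eed -/-, 4 and 34 in Ezh2 -/-. Unweighted means gave 66 rises in Eed -/- and 47 in Ezh2 -/-, and at 40 points 9703 single CpGs fell in Fbxl10 T/T. The cause was not tested. No paired analysis was possible because each genotype has 1 library.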

Other observations

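Of the 13 windows at 30 to 70% in WT that read under 10% in Ezh2 -/-, 10 lie outside the regions, and 1 of these is the Zrsr1 window. In the window of chromosome 11 from 84924001 to 84925000, methylation was 45.3% in WT, 4.69% in Ezh2 -/- (64 reads), 16.9% in Eed -/-, 58.9% in Ring1B -/- and 89.6% in Fbxl10 T/T. The window of chromosome 7 from 129008001 to 129009000 read 39.7% in WT, 8.33% in Ezh2 -/- (36 reads), 8.06% in Eed -/-, 47.2% in Ring1B -/- and 75.7% in Fbxl10 T/T. At the window of chromosome 4 from 134696001 to 134697000 the levels were 34.8% in WT, 8.05% in Ezh2 -/- (87 reads), 7.69% in Eed -/-, 3.37% in Ring1B -/- and 58.2% in Fbxl10 T/T. These windows were chosen after their values were seen and are given as a description, without gene names.

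The promoters of factors that maintain imprints read under 10% in WT and Fbxl10 T/T. Dnmt1, the maintenance methyltransferase, read 0.737% in WT (1085 reads) and 0.332% in Fbxl10 T/T (602 reads), and Setdb1, a histone H3 lysine 9 methyltransferase, read 1.28% (78 reads) and 2.44% (41 reads). Uhrf1, which guides DNMT1 to replicated DNA, read 3.52% in WT (768 reads) and 9.51% in Fbxl10 T/T (452 reads) around its first start. Zfp445, a zinc finger protein of imprint maintenance, read 7.93% in WT (921 reads) and 0.357% in Fbxl10 T/T (561 reads). In the Polycomb mutants these promoters held 37 reads or fewer, apart from Dnmt1 with 46 in Eed -/-.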
